A study of Mus musculus with 16 samples.

Results

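The 8 genes described here encode receptors for the cytokines that control blood formation. They were Kit, Flt3, Epor, Tek, Csf1r, Csf2rb, Csf3r and Il7r, and they were taken by name from the 21851 protein-coding genes of the mouse annotation and not by a threshold on their peaks. Each gene was described by the peaks of 3 histone marks in its gene body and 5 kb on either side, and at its promoters, defined as 1 kb on either side of an annotated start site. ChIP-seq was performed for H3K4me3, H3K27me3 and H2AK119ub1 in hematopoietic stem cells (HSCs) of Young mice (10 weeks old) and Aged mice (20 months old). The labels give 16 libraries in 8 groups of 2, which are the 3 marks and the input at either age. All mice were C57BL/6, and the study describes them as females that were bought young and, for the Aged group, kept until old. Its outline of the experiments has bone marrow cells of several animals of an age pooled before sorting, without naming ChIP-seq there. No genotype or treatment differed between the ages.

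In both ages the HSCs were sorted as lineage-negative cells that were positive for c-kit, Sca-1 and CD150, and negative for CD34, CD48, Flt3 and the IL-7 receptor. The sort therefore used the proteins of 3 of the 8 genes, with Kit required and the products of Flt3 and Il7r required to be absent. Chromatin at these genes was thus read in cells already chosen on their surface proteins. Each mark and age was available as 1 pooled list of peaks, so there was no spread between replicates. Young and Aged values are therefore only set side by side, since 2 lists without replicates allow no test of age.

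Cytokine receptors fall into 2 structural groups. Kit, Flt3, Csf1r and Tek encode receptor tyrosine kinases, which carry the kinase in their own intracellular part. Epor, Csf2rb, Csf3r and Il7r encode receptors without a kinase, which signal through bound JAK kinases to STAT transcription factors. Signalling is ended in part by SOCS proteins, phosphatases and ubiquitin ligases. H3K4me3 is placed around the start sites of transcribed or poised genes, whereas H3K27me3 and H2AK119ub1 are placed by Polycomb repressive complexes 2 and 1, mostly at CpG-rich promoters of silent developmental genes. HSCs depend on Kit signalling, and Tek (Tie2) has long been studied in the quiescence of HSCs. Csf1r, Csf3r, Epor, Flt3 and Il7r are better known from monocytes, granulocytes, erythroid cells, multipotent or dendritic progenitors and lymphoid progenitors, respectively.

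The promoters differed in a property that bears on where these marks are usually found, their content of CpG dinucleotides. Sequences upstream of the RefSeq start site are printed for Kit and Flt3, whose promoters are CpG-rich, and for Epor, Tek and Il7r. Il7r had the lowest CpG content of the 8. The sequences are given 5′ to 3′ on the strand of the gene, with every CpG in capitals. They come from the RefSeq promoters of the GRCm38.p6 (mm10) assembly. The RefSeq start lies 32 bp (Kit), 0 bp (Flt3), 70 bp (Epor), 11 bp (Tek) and 41 bp (Il7r) from the main start, to which peak distances refer. Bases annotated as exon of a coding transcript are left out, so the Kit stretch ends before its RefSeq start. The Il7r stretch lies inside the annotated gene, which extends farther upstream. The Kit stretch (chr5:75574737-75574915, plus strand) holds 10 CpGs in 179 bases. The Flt3 stretch (chr5:147400490-147400739, minus strand) holds 13 in 250 bases. The Epor stretch (chr9:21963577-21963826, minus strand) holds 6 in 250 bases, the Tek stretch (chr4:94739039-94739288, plus strand) 2 in 250 bases, and the Il7r stretch (chr15:9529877-9530126, minus strand) 1 in 250 bases.
Kit: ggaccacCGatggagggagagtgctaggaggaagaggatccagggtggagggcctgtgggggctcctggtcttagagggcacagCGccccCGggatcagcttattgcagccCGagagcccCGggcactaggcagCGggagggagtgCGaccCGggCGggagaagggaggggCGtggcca
Flt3: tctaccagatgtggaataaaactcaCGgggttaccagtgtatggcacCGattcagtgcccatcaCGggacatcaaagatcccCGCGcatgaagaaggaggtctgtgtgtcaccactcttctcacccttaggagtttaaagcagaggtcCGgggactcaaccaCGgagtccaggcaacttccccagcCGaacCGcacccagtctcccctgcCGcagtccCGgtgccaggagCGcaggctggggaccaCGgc
Epor: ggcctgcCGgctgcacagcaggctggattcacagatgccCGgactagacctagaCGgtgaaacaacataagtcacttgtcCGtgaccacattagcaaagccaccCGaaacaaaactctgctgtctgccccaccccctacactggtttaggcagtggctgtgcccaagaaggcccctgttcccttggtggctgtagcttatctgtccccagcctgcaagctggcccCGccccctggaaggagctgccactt
Tek: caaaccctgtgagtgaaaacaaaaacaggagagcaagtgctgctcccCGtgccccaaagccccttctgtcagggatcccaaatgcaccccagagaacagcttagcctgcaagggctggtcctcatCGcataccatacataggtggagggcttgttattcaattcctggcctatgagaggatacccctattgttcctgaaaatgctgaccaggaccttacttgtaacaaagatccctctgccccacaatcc
Il7r: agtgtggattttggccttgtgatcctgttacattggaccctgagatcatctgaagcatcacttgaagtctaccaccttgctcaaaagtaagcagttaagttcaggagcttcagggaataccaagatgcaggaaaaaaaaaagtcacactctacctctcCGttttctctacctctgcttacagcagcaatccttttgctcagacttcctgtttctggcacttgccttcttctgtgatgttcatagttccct

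Over the whole promoter of 1 kb on either side of the main start, Kit exceeded Flt3. The printed Flt3 stretch holds more CpGs than that of Kit and is also longer (250 against 179 bases). Its ratio of observed to expected CpGs is higher as well (0.597 against 0.514). Over the whole promoter, CpG dinucleotides were observed at 0.718 of the expected number in Kit and 0.610 in Flt3. Both were above the median of 0.483 over 21840 coding genes. The other 6 promoters were below that median, with 0.340 in Epor, 0.314 in Csf3r, 0.302 in Tek, 0.172 in Csf1r, 0.165 in Csf2rb and 0.135 in Il7r. For comparison, genes with a Young H3K4me3 peak at the promoter had a median of 0.639. Kit was thus the only one of the 8 promoters above the typical value of H3K4me3-marked genes, with 131 CpGs, more than 88.7% of coding genes had. Il7r had 11 CpGs, more than only 11.2% of coding genes.

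**Figure D1:**
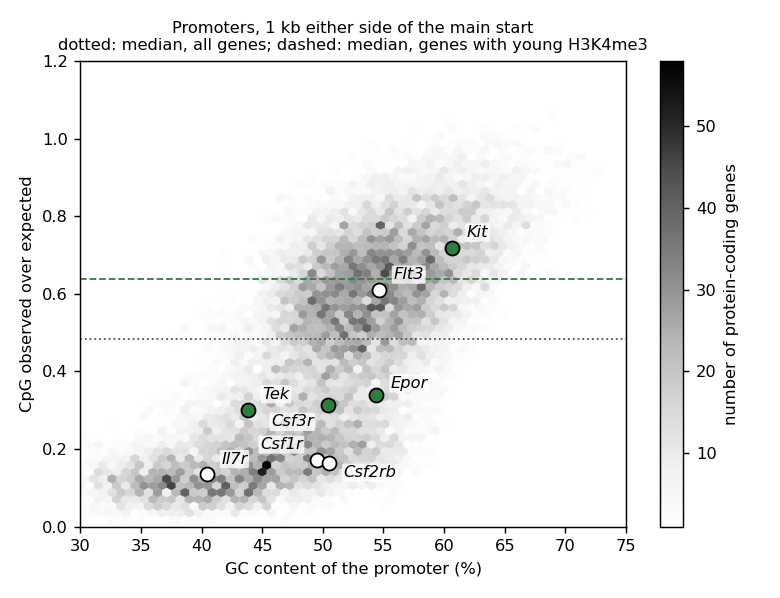
GC content (percent, x axis) against the ratio of observed to expected CpG (y axis) of promoters, with all coding genes as grey hexagons and the 8 receptor genes as circles, filled green where an H3K4me3 peak lay in the gene body or 5 kb flank at either age. Kit (0.718) and Flt3 (0.610) lie in the CpG-rich cloud and the other 6 genes lie below the median of all genes (dotted line, 0.483), and the 3 genes with the lowest ratios carry no H3K4me3 peak.

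Short motifs of blood transcription factors were then looked for, on both strands, in the RefSeq promoters from 250 bases before to 50 bases after the start, which were given for 6 of the 8 genes (all but Csf1r and Csf2rb). The GATA letters GATAAG, held by 7.43% of 27025 promoters, occurred in Epor and Tek. In Epor they lie on the reverse strand of the printed sequence, with the leftmost base 55 bases before the RefSeq start. The ETS letters GAGGAAG (13.5% of promoters) occurred in Kit and Csf3r, the RUNX letters TGTGGT (16.9%) in Epor and Il7r, the C/EBP letters TTGCNNAA (10.8%) in Il7r and the SP1 letters GGGCGG (35.9%) in Kit and Epor. Flt3 held none of the 5 motifs in this window. These matches describe the letters only.

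The lists behind the following results differed in length between the ages. Young and Aged H3K4me3 gave 11371 and 6723 peaks, H3K27me3 gave 63142 and 20419 regions, and H2AK119ub1 gave 2593 and 17768 regions. The chance that any gene holds a peak moved with these lengths, so each count of the 8 genes is set beside the percentage of all 21851 coding genes. Fold enrichment is the ratio of reads at a peak to the local background. The −log10 q-value is the caller's significance after adjustment for multiple testing, with higher values for stronger peaks. For H3K4me3 the reads over each summit could be recovered from these columns. The median peak rested on 20 reads in the Young list and 19 in the Aged list, with a lowest background of 3.70 and 3.52 reads. Of 15 HSC marker genes, 11 had an H3K4me3 promoter peak at each age, though not the same 11. Kit is itself 1 of these 15 and is counted in the Aged list only. Promoter H3K4me3 was present at 0 of 8 myeloid and 0 of 6 T cell markers at both ages, at 2 (Young) and 1 (Aged) of 7 B cell markers, at 1 of 7 markers of stroma and endothelium (Cxcl12) at both ages, and at 2 (Young) and 0 (Aged) of 7 erythroid markers. Beside these marker counts, 33.8% (Young) and 23.3% (Aged) of all coding genes had a promoter H3K4me3 peak.

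H3K4me3 reached the promoter of 3 of the 8 genes at each age. The Young genes were Epor, Tek and Csf3r, beside 33.8% of all coding genes, and the Aged genes were Kit, Tek and Csf3r, beside 23.3%. With the gene body and 5 kb on either side included, 4 genes (Kit, Epor, Tek and Csf3r) held a Young peak, beside 40.6% of coding genes, and 3 (Kit, Tek and Csf3r) held an Aged peak, beside 29.0%. With 8 genes these counts lie close to the background shares. The 7 Young peaks covered 2199 bp, or 0.462% of the 475782 bp of the 8 regions, and the 5 Aged peaks covered 1587 bp, or 0.334%. The Young length includes a peak of 422 bp beside the start of Mrps15, a neighbour of Csf3r. Over all gene regions of the annotation, H3K4me3 covered 0.309% in the Young list and 0.165% in the Aged list.

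H3K27me3 reached 1 promoter (Flt3) in the Young list, beside 16.0% of coding genes, and 0 promoters in the Aged list, beside 8.24%. H2AK119ub1 reached 0 promoters in either list, beside 1.91% (Young) and 14.0% (Aged) of coding genes. With 8 genes these counts, too, cannot be set apart from the background. In the gene bodies and flanks, Young H3K27me3 was present at 2 genes (Flt3 and Epor, beside 27.8%), Aged H3K27me3 at 0 (beside 16.5%), Young H2AK119ub1 at 0 (beside 5.99%) and Aged H2AK119ub1 at 1 (Epor, beside 29.0%). H3K27me3 covered 788 bp, or 0.166%, of the 8 regions in the Young list, whereas it covered 2.11% of all gene regions. Aged H2AK119ub1 covered 315 bp, or 0.0662%, beside 0.484% of all gene regions. Absence from a list does not show that a mark is absent, since a weak or broad signal can stay under the threshold of the caller.

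**Figure D2:**
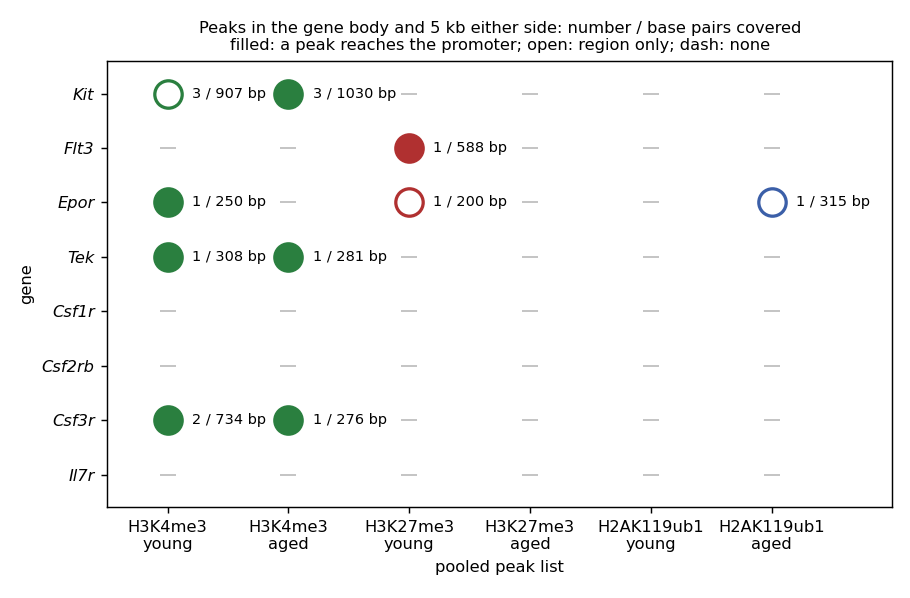
Peaks of the 8 receptor genes (rows) in the 6 pooled lists (columns), with the number of peaks and the base pairs covered in the gene body and 5 kb on either side. Filled circles reach a promoter, open circles lie elsewhere in the region and dashes mark no peak; Kit, Tek and Csf3r carry H3K4me3 at both ages, Epor is the only gene with peaks of all 3 marks, and the rows of Csf1r, Csf2rb and Il7r are empty.

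Kit encodes the receptor of stem cell factor and spans 81807 bp (chr5:75574916-75656722, plus strand). It carried a row of 3 H3K4me3 peaks at each age, all of them in an intron downstream of the start. At least 3 peaks in the region were found at 5.68% of coding genes in the Young list and at 1.83% in the Aged list, although Kit is longer than 85.8% of coding genes and so had more room for them. In the Young list, the peak nearest to the start (chr5:75575999-75576239) was 4.48-fold enriched with a −log10 q-value of 6.09, and 23 reads covered its summit (95% interval 14.6 to 34.5). The second Young peak (254 bp) was 3.73-fold enriched with 19 summit reads, and the one farthest from the start (412 bp) was 3.68-fold enriched with 18. All 3 Young peaks together covered 907 bp within a span of 1767 bp.

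The Aged row lay over nearly the same ground. Its nearest peak (chr5:75575946-75576234) was 4.42-fold enriched with a −log10 q-value of 4.71 and 19 summit reads (95% interval 11.4 to 29.7). The second Aged peak (343 bp) was 4.20-fold enriched with 18 summit reads, and the farthest (398 bp) was 3.83-fold enriched with 21. The Aged peaks covered 1030 bp within a span of 1336 bp. Of the 3 peaks, 2 overlapped between the ages, by 236 and 254 bp, while the farthest pair lay 72 bp apart. The summit reads of both nearest peaks had overlapping counting intervals.

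Kit was counted among the Aged but not the Young genes with a promoter peak only because of the edge of the promoter window. The nearest Young peak began 1044 bp downstream of the main start, outside the window of 1 kb, and the nearest Aged peak began 991 bp downstream and reached into the window by 10 bp. With a window of 2 kb, Kit had a promoter peak at both ages. No Polycomb region lay in the Kit region at either age. The nearest H3K27me3 regions lay 419135 bp (Young) and 420000 bp (Aged) upstream of the start, over the promoter of Pdgfra, the neighbouring receptor tyrosine kinase gene of mesenchymal cells. There, the Young region was 4591 bp wide and the Aged region 1396 bp wide. Within this group of related kinase genes, the lists thus held H3K4me3 at Kit and H3K27me3 at Pdgfra at both ages.

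Tek encodes the receptor of the angiopoietins and is the longest of the 8 genes, with 135688 bp (chr4:94739289-94874976, plus strand). Its H3K4me3 peak lay at the same place at both ages. The Young peak (chr4:94739640-94739947, 308 bp) was 4.64-fold enriched with a −log10 q-value of 6.09 and 22 summit reads (95% interval 13.8 to 33.3). The Aged peak (chr4:94739651-94739931, 281 bp) was 4.29-fold enriched with a −log10 q-value of 5.83 and 25 summit reads (95% interval 16.2 to 36.9). The Aged peak lay wholly within the Young peak. It ranked at 15.4% from the top of the Aged list, and the Young peak at 20.3% from the top of the Young list. Both began within 400 bp downstream of the main start, over a coding exon and the intron that follows it. Tek reached this state with only 29 CpGs in its promoter, fewer than the median of 63 over coding genes. The nearest H3K27me3 regions lay 1517647 bp (Young) and 1518244 bp (Aged) away, the greatest distances to this mark among the 8 genes.

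Stretches shared by the Young and Aged H3K4me3 peaks are printed for Kit and Tek, because they are where the mark was found at both ages. For Kit, only the shared stretch nearest to the start is printed. The Kit stretch (chr5:75575999-75576234, plus strand) lies in an intron and holds 6 CpGs in 236 bases, with the letters of the C/EBP motif occurring once. The Tek stretch (chr4:94739693-94739931, plus strand) is the intronic portion of the shared peak and holds 5 CpGs in 239 bases. CpGs are in capitals. Both printed stretches are less rich in CpG than the promoter of Kit itself. The observed to expected ratio was 0.440 in the printed Kit stretch and 0.376 over the whole shared Tek peak. The second shared Kit stretch (chr5:75576319-75576572) has 254 bases, 6 CpGs and a ratio of 0.374. None of the motifs looked for occurred in it.
Kit: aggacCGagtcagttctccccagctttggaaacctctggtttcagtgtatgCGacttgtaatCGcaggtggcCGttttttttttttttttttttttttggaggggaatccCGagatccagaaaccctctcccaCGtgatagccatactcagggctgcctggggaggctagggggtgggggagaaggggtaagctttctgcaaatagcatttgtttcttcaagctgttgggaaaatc
Tek: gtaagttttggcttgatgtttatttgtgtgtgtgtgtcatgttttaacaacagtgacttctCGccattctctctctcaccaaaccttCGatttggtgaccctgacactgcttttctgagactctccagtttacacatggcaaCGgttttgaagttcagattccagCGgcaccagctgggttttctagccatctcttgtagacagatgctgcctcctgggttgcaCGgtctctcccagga

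Csf3r encodes the receptor of granulocyte colony-stimulating factor and spans 19891 bp (chr4:126024550-126044440, plus strand). It had an H3K4me3 promoter peak at both ages, but at different places. The Young peak (chr4:126025005-126025316) lay in an intron, from 455 to 766 bp downstream of the start. It was 4.04-fold enriched with a −log10 q-value of 4.22 and 18 summit reads. The Aged peak (chr4:126024511-126024786) lay across the start itself and the untranslated region, and was 3.98-fold enriched with a −log10 q-value of 3.65 and 17 summit reads. The peaks did not overlap and were 218 bp apart. They were the weakest promoter peaks of the group by −log10 q-value at their ages, ranking at 55.8% and 63.9% from the top of their lists. With peaks of a −log10 q-value of at least 4 only, the Aged peak was lost. When the Young list was shortened to the length of the Aged list, the Young promoter peak was lost.

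The strongest H3K4me3 peak in any of the 8 regions was also in that of Csf3r, but it belonged to a neighbour by position. It lay in the downstream flank (chr4:126047020-126047441) in the Young list, was 6.38-fold enriched with a −log10 q-value of 11.0 and 29 summit reads (95% interval 19.4 to 41.6), and ranked 75 of 11371. Its distance to the start of Mrps15, a mitochondrial ribosomal protein gene, was 95 bp, and its distance to the start of Csf3r was 22470 bp. Without peaks at starts of other genes, Csf3r remained among the genes with a region peak at both ages. No Polycomb region lay in the Csf3r region. The nearest H3K27me3 regions lay 30748 bp (Young) and 80272 bp (Aged) upstream.

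Epor encodes the erythropoietin receptor and is the shortest of the 8 genes, with 4610 bp (chr9:21958897-21963506, minus strand). It was the only one of the 8 with a different mark listed in its gene body at each age. The Young list held an H3K4me3 peak (chr9:21962290-21962539) over a coding exon, 4.25-fold enriched with a −log10 q-value of 4.78 and 19 summit reads (95% interval 11.4 to 29.7). The Aged H3K4me3 list held none there, and its nearest peak lay 122061 bp away. The Aged H2AK119ub1 list held a region of 315 bp (chr9:21962018-21962332), 3.14-fold enriched with a −log10 q-value of 1.60, for which the Young list had nothing within 661928 bp of the gene body. The Young H3K4me3 peak and the Aged H2AK119ub1 region overlapped by 43 bp in the coding exon. Young H3K27me3 added a region of 200 bp in the upstream flank (chr9:21967928-21968127), 4422 bp from the start, 3.39-fold enriched with a −log10 q-value of 2.42, which holds no CpG.

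These Epor peaks were of middling rank. The H3K4me3 peak ranked at 43.6% from the top of its list, the H3K27me3 region at 27.4% and the H2AK119ub1 region at 60.5%. With the start sites used here, the H3K4me3 peak reached into the promoter by only 34 bp. With the start sites of all annotated transcripts, its full 250 bp and the full 315 bp of the H2AK119ub1 region lay in a promoter. The list of Young H2AK119ub1 was shorter than the Aged list, and the Aged H3K4me3 list shorter than the Young, so both differences at Epor run in the same direction as the lengths of the lists. When the Aged H2AK119ub1 list was shortened to the length of the Young list, the Epor region was lost. When the Young H3K4me3 list was shortened to the length of the Aged list, the Epor peak was kept. Erythroid markers were counted in the same lists. Promoter H3K4me3 was at 2 of the 7 erythroid markers in the Young list, including Tfrc (transferrin receptor, 4.04-fold), and at 0 in the Aged list. With 33.8% (Young) and 23.3% (Aged) of all coding genes beside them, these counts cannot be set apart from the background. Promoter H3K4me3 also fell from the Young to the Aged list among all coding genes. The mark was absent from both lists at Gata1 and Klf1, which encode erythroid transcription factors, and at the globin genes Hbb-bt and Hba-a1. The part of erythroid cells in the Epor peak was not tested.

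**Figure D3:**
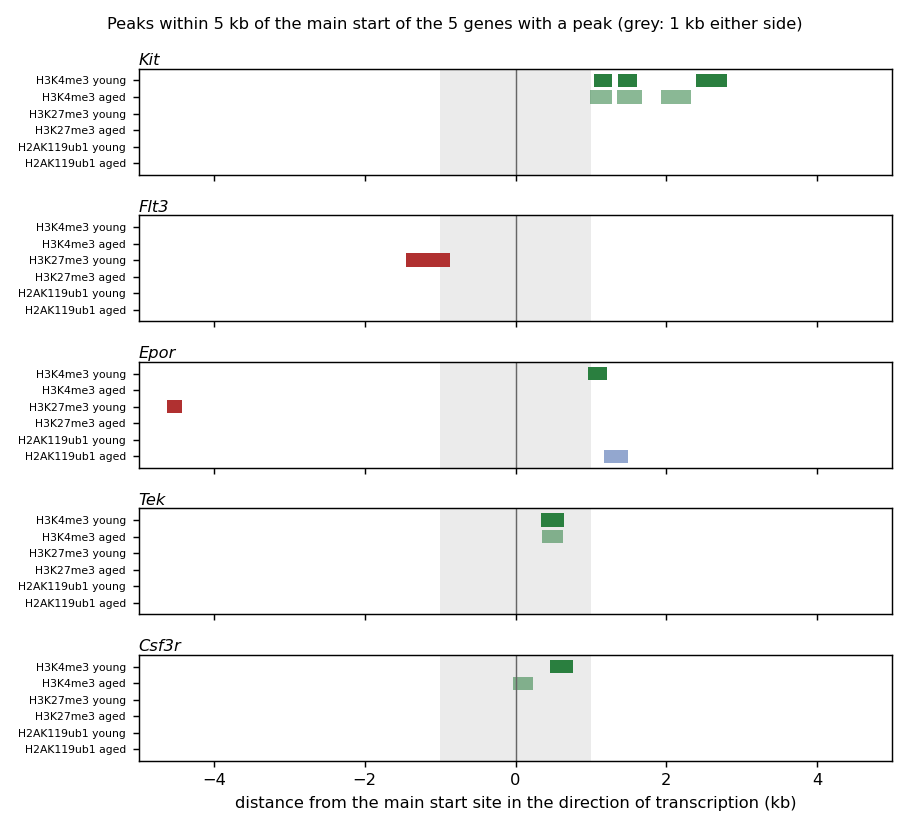
Position of the peaks within 5 kb of the main start (x axis, kb in the direction of transcription) for the 5 genes with a peak, with 1 row per mark and age and the promoter of 1 kb on either side in grey. The H3K4me3 peaks (green, pale for Aged) lie at or downstream of the start in all 4 genes that have them, the Young Kit row lies just outside the window edge at 1 kb and the Aged row crosses it, and the H3K27me3 regions of Flt3 and Epor (red) lie upstream.

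The summits of H3K4me3 lay downstream of the start at varied distances. Leaving out the peak at Mrps15, all 11 H3K4me3 summits at Kit, Epor, Tek and Csf3r lay downstream of the main start, by 46 bp (Aged Csf3r) to 2613 bp (the farthest Young Kit peak). Peaks of both ages are counted, so these are not 11 separate sites. In the whole lists, 72.2% of the summits within 3 kb of a coding start lay downstream of the nearest start at each age, with a median offset of 219 bp (Young) and 202 bp (Aged). The first summits of Kit (1110 bp Young, 1088 bp Aged) and the Epor summit (1113 bp) lay beyond the upper quartiles of 578 and 513 bp, while those of Tek (376 bp Young, 447 bp Aged) lay within them. The reads over the summits of these 11 peaks, 17 to 25, spanned the medians of the whole lists.

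**Figure D4:**
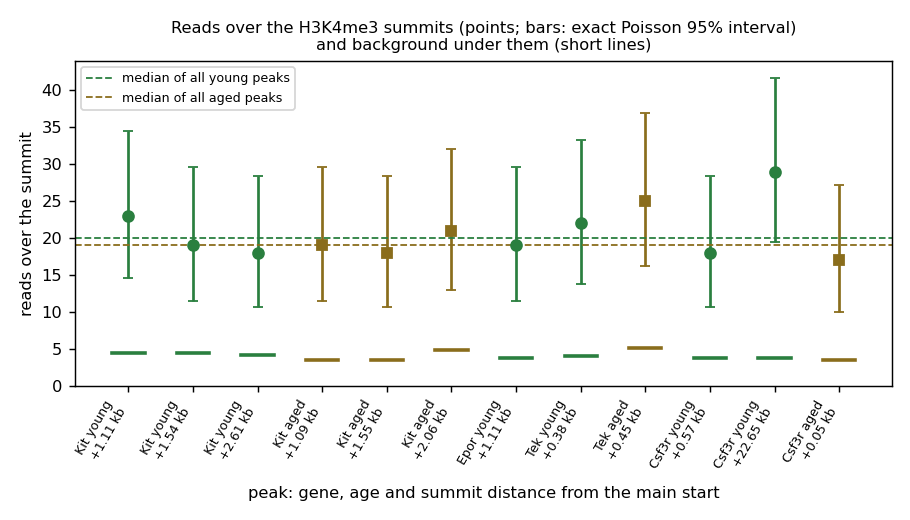
Reads over the summit (y axis) of each H3K4me3 peak in the regions of Kit, Epor, Tek and Csf3r, with exact Poisson 95% intervals that cover counting error only, short lines for the background under the peak and dashed lines for the medians of the whole Young (20) and Aged (19) lists. The peaks hold 17 to 29 reads over a background of 3.5 to 5.1 reads, and every interval but that of the Mrps15 peak (lower bound 19.4) spans 19 and 20 alike.

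Flt3 encodes the receptor of FLT3 ligand and spans 69749 bp (chr5:147330741-147400489, minus strand). It was the only one of the 8 genes with a Polycomb region at the promoter, and it had no H3K4me3 peak in its region at either age. The Young H3K27me3 region (chr5:147401354-147401941, 588 bp) lay between positions −1452 and −865 bp relative to the start, over the antisense gene Gm26597, and reached into the promoter window by 136 bp. It was 3.06-fold enriched with a −log10 q-value of 1.79 and ranked at 61.0% from the top of its list. The CpG-rich stretch printed for Flt3 lies outside it, and the region itself had an observed to expected CpG ratio of 0.251. The Aged list held no H3K27me3 region in the gene or its flanks. The Young region was also lost with a promoter window of 0.5 kb and when the Young list was shortened to the length of the Aged list. The nearest H3K4me3 peaks lay 29281 bp (Young) and 29335 bp (Aged) upstream of the start, close to the start of Pan3. Flt3 was thus the CpG-rich promoter of the group without an H3K4me3 peak. The cells were sorted for the absence of its protein, and a link between the sort and the missing peak was not tested.

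The wider surroundings of Flt3 held a Polycomb domain at both ages. On its 3′ side lie Urad and Cdx2, a homeobox gene of the intestine, and the regions that came within 5 to 20 kb of Flt3 are given with their full widths. Young H3K27me3 had 2 such regions of together 10742 bp. The wider region, 8516 bp over Cdx2 and Urad, ranked 163 of 63142 by width. Aged H3K27me3 had 7 regions of together 4501 bp, the widest of 1354 bp. H2AK119ub1 was present with 2 regions of together 592 bp in the Young list and with 7 regions of together 4525 bp in the Aged list, the widest of 1664 bp. The regions nearest to Flt3 ended 11612 bp (Aged H3K27me3), 11798 bp (Aged H2AK119ub1), 12640 bp (Young H3K27me3) and 13143 bp (Young H2AK119ub1) from the gene body. The domain was thus present in all 4 Polycomb lists and stopped short of Flt3 in each of them.

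Csf1r, Csf2rb and Il7r had no peak of any mark in the gene body or flanks at either age. At the promoter alone, having no peak in any of the 6 lists was the most common state, found at 45.0% of coding genes. This share does not cover gene bodies and flanks. The 3 genes also had the lowest observed to expected CpG ratios of the group. Il7r encodes the receptor subunit for interleukin-7 and thymic stromal lymphopoietin (chr15:9505788-9530176, minus strand). Its nearest H3K4me3 peaks lay 388739 bp (Young) and 218645 bp (Aged) from the main start, farther than for any other member. A Young H3K27me3 region of 242 bp, 3.09-fold enriched, lay 5327 bp upstream of the gene body, just outside the flank of 5 kb, and the nearest Aged H3K27me3 region lay 646556 bp away.

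Csf2rb encodes the signalling subunit shared by the receptors of interleukin-3, interleukin-5 and granulocyte-macrophage colony-stimulating factor (chr15:78325752-78353847, plus strand). Its nearest H3K4me3 peaks lay 80666 bp (Young) and 80141 bp (Aged) downstream of the start. An Aged H2AK119ub1 region of 333 bp, 3.81-fold enriched, lay 14413 bp beyond the gene. The start of Csf2rb2, a closely similar copy that serves interleukin-3 alone, lies 20031 bp away. How reads that fit both copies were handled is not given in the sources used here, so the empty rows of this gene are less certain than the others. Csf1r encodes the receptor of macrophage colony-stimulating factor and interleukin-34 (31552 bp, plus strand), and lies beside Pdgfrb. Its nearest H3K4me3 peaks lay 71676 bp (Young) and 71707 bp (Aged) downstream of the main start, and its nearest H3K27me3 regions 67266 bp (Young) and 70263 bp (Aged) upstream.

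The rest of the signalling pathway was described by 4 lists of genes. Among 37 other cytokine and growth factor receptors, H3K4me3 was at the promoter of 12 (Young) and 9 (Aged), close to the background shares given for all genes. The strongest were Il15ra (interleukin-15 receptor, 5.85-fold Young and 4.31-fold Aged) and Tie1, the sister gene of Tek (4.04-fold Young and 5.75-fold Aged). H3K27me3 was at 5 (Young) and 4 (Aged) of the 37 promoters, and H2AK119ub1 at 1 (Young) and 10 (Aged). The Aged H2AK119ub1 count of 10 stands beside 14.0% of all coding genes, and this difference was not tested. The widest Polycomb region was at Lifr, the receptor of leukemia inhibitory factor, with 10013 bp of Young H3K27me3 and 898 bp of Aged H3K27me3. Lifr carried H3K4me3 at both ages as well. Pdgfra followed, with the widths given beside Kit.

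Among the 14 ligands of the 8 receptors, H3K4me3 was at the promoter of 4 (Young) and 2 (Aged), H3K27me3 at 2 and 1, and H2AK119ub1 at 0 and 5. Among all coding genes, H3K4me3 was at 33.8% (Young) and 23.3% (Aged) of promoters, H3K27me3 was at 16.0% (Young) and 8.24% (Aged), and H2AK119ub1 was at 1.91% (Young) and 14.0% (Aged). The Aged H2AK119ub1 share of the ligands, 35.7%, was thus the one farthest from its background, which was not tested. Il7 (4.84-fold Young, 4.64-fold Aged) and Angpt1, the ligand of Tek (4.89-fold Young, 4.37-fold Aged), had H3K4me3 at both ages. Epo, the ligand of Epor that is made in kidney and liver, carried 1793 bp of H3K27me3 in the Young list and 505 bp of H2AK119ub1 in the Aged list. Angpt2 carried 753 bp of H3K27me3 in the Young list only. The ligand genes thus held both kinds of state, as the receptors did.

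The genes acting inside the cell were described in the same way. Of 15 JAK kinases and signal adaptors, 10 (Young) and 6 (Aged) had an H3K4me3 promoter peak, 0 had H3K27me3 at either age, and 0 (Young) and 2 (Aged) had H2AK119ub1. The strongest H3K4me3 peaks were at Gab2 and Pik3r1, both with 5.53-fold enrichment in Young HSCs and 4.64-fold in Aged HSCs. Of 16 negative regulators, 13 (Young) and 7 (Aged) had H3K4me3, 0 had H3K27me3 at either age, and 0 (Young) and 4 (Aged) had H2AK119ub1. The shares of all coding genes are those given beside the ligands, with 14.0% for Aged H2AK119ub1. Socs5 (6.59-fold, Young only) and Cish, an early STAT5 target (5.74-fold Young, 4.86-fold Aged), were the strongest. Socs1 (429 bp) and Dok2 (266 bp) had the widest Polycomb regions, both of Aged H2AK119ub1. These shares are descriptions of lists of 15 and 16 genes beside 8, and their difference was not tested.

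**Figure D5:**
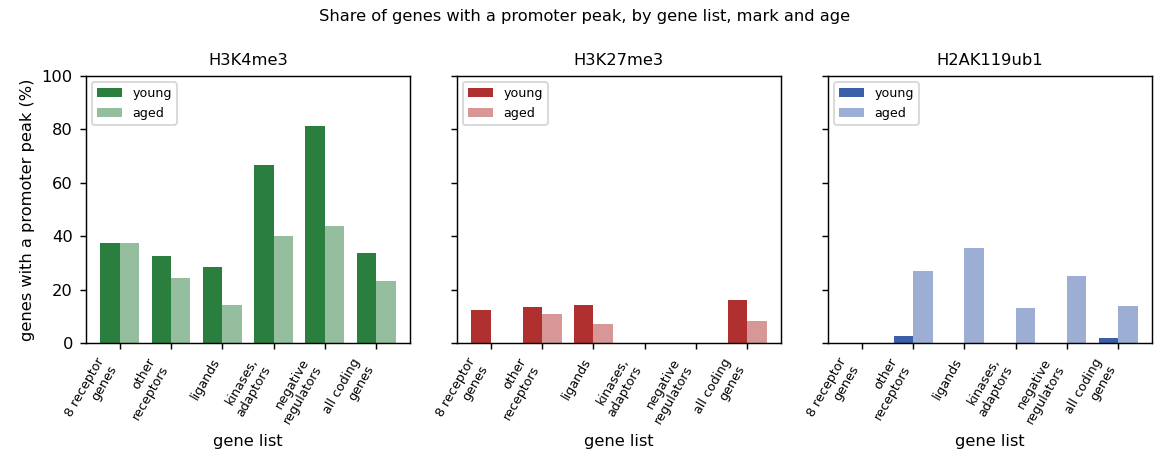
Percentage of genes with a promoter peak (y axis) for the 8 receptor genes, the 4 pathway lists and all coding genes, with 1 panel per mark and dark bars for Young and pale bars for Aged. For H3K4me3 the kinases and adaptors (10 of 15 Young) and negative regulators (13 of 16 Young) stand above all coding genes (33.8% Young), while the receptors (12 of 37 other receptors Young) lie close to them; H3K27me3 is at 0 kinases, adaptors and negative regulators.

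Across the 6 lists, the pathway genes most like each receptor were those with the same presence or absence at the promoter, among 82 genes of the 4 lists. Tek and Csf3r, with H3K4me3 alone at both ages, shared this state with 15.0% of coding genes and with 18 pathway genes, including Jak2, Tie1, Angpt1 and Cish. Epor, with Young H3K4me3 alone, shared its state with 12.9% of coding genes and 12 pathway genes, including Il6st, Jak3, Sh2b3 and Socs2. Kit, with Aged H3K4me3 alone in this window, shared its state with 4.44% of coding genes and with Cbl, Ifngr1, Il10rb and Socs7. This state of Kit rests on the 10 bp by which its Aged peak reached into the window. With a window of 2 kb, Kit had a promoter peak at both ages, so its likeness to these genes depends on the window. Flt3, with Young H3K27me3 alone, shared its state with 4.23% of coding genes and with Angpt2 and Osmr. Csf1r, Csf2rb and Il7r shared the empty state with 23 pathway genes, including Csf2ra and Il3ra, whose products pair with that of Csf2rb, and Il2rg, whose product pairs with that of Il7r.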

How the data were processed

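Sorted HSCs were cross-linked by the authors, their chromatin was cut by sonication and micrococcal nuclease, and single reads were aligned to mm10 by Bowtie2. The submitters' processing notes also name MACS2 2.2.6. Peaks were deposited by the authors as 6 pooled lists, 1 for each mark and age, as narrow peaks for H3K4me3 and broad regions for the Polycomb marks. Peak names of the broad lists carry a single library number, which leaves unclear whether the 2 replicates of a group were both used. The deposited columns hold a display score (not used), the fold enrichment as a linear ratio, and the −log10 p-value and −log10 q-value. In broad lists these are averages over a region. No list gives library totals. Handling of duplicated reads is not given in the sources used here.

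Genes and 41438 start sites came from the GENCODE M21 basic annotation of mm10 (chromosomes 1 to 19, X and Y). Overlap of at least 1 bp was counted, with Python 3.11.15 (scipy 1.17.1, numpy 2.4.6, pandas 2.3.3, pysam 0.24.0). Where a gene has several starts, distances refer to the outermost start of its principal transcripts, called the main start. H3K4me3 summit reads were recovered from fold enrichment, (reads + 1) / (background + 1), and the Poisson p-value, and were whole numbers for 100% of peaks, within 0.01 of the −log10 p-value. Their intervals are exact Poisson 95% intervals and cover counting error only. Overlap counting and read recovery were each tested on simulated data. No test between the ages was possible. All 8 genes were named, with up to 4 examples of each gene list: those with the highest −log10 q-value for promoter H3K4me3 and those with the widest promoter Polycomb region. Genes beside a member were named where a peak lay closer to their start. A few list genes are counted but not reported here by name. The members and the gene lists were chosen with earlier results of these data known.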

Additional observations from a re-analysis of the deposited data

How the results depend on the processing

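All 96 values recomputed under the alternatives concern the 6 lists at the 8 genes, and 72 of them stayed within 1.5 times the value given in the report. The 24 others, all but 1 of them for Polycomb marks, were as follows. With peaks of a −log10 q-value of at least 4 only, the Young H3K27me3 counts fell to 0 promoters, 0 regions and 0 bp and those of Aged H2AK119ub1 to 0 regions and 0 bp. These filtered lists held 1601 and 128 regions. With the same number of peaks at both ages, Young H3K4me3 covered 1221 bp instead of 2199 bp, Young H3K27me3 was left at 0 promoters, 1 region (Epor) and 200 bp, and Aged H2AK119ub1 at 0 regions and 0 bp. Young H3K27me3 was at 0 promoters when 50% of the peak had to lie inside and with a window of 0.5 kb, and at 0 gene bodies and 0 bp without the flank. Aged H2AK119ub1 was at 1 promoter (Epor) with a window of 2 kb or with the start sites of all transcripts. A flank of 20 kb gave 7874 bp of Young H3K27me3, 1 gene (Flt3) and 4501 bp of Aged H3K27me3, 1 gene (Flt3) and 592 bp of Young H2AK119ub1, and 3 genes (Flt3, Epor and Csf2rb) and 4761 bp of Aged H2AK119ub1, through the regions beside these genes. The numbers of genes with H3K4me3 stayed within 1.5 times under every alternative, although Kit, Epor and Csf3r entered or left with the window, the overlap, the filter or the length of the list. No paired analysis was possible because the replicates of a group had been merged into 1 list, and for the same reason no replicate could be left out. Depth limits the H3K4me3 values, since a typical summit rested on about 20 reads.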
